A study of Mus musculus with 9 samples.

Results

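The transcriptome of irradiated M1 macrophages was set against that of resting M0 macrophages, to show how much of the inflammatory state was still present in the RNA after photobiomodulation (PBM). Of the 9 libraries, 6 enter this comparison, the 3 libraries labelled M1+PBM and the 3 labelled M0. The cells were macrophages grown from the femur and tibia marrow of wild type C57BL/6 mice aged 6 to 8 weeks, cultured for 7 days with 10 ng/mL M-CSF, the growth factor that drives marrow precursors into macrophages. M0 cells were left unstimulated and are labelled as not treated with PBM. M1+PBM cells received 100 ng/mL LPS and 20 ng/mL IFN-γ and near-infrared laser light at 6 mW/cm2 for 7 min, repeated every 12 h, and the study describes their RNA as taken 12 h after light. The 3 M1 libraries, with the same stimulus and no light, are used for reference. The groups therefore differ in the stimulus and in the light at once, and no library was made from M0 cells given light alone. The labels do not say whether replicates came from separate mice, so how much of the spread between libraries is technical is unknown. Levels of Xist and of Y-linked genes, given below, differed among libraries of the same group.

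M1 polarization is driven by LPS through toll-like receptor 4 and NF-κB, and by IFN-γ through STAT and IRF factors. The first arm is known for cytokines such as IL-6 and IL-1, for COX-2 (gene Ptgs2) and for inducible nitric oxide synthase (Nos2), and the second for guanylate-binding proteins and antigen presentation, while type I interferon made in response to LPS adds a wide set of antiviral genes. Resting marrow macrophages still divide in M-CSF, and activation halts division.

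Values are FPKM, fragments normalized for transcript length and for library size, and differences are of the mean log2(FPKM + 1) of a group, which understates the change of low genes. The M0 libraries stand in 1 table and the M1 and M1+PBM libraries in another, so table and group cannot be told apart, and M1+PBM and M0 were compared without a test. Of 55655 rows, 13583 reached 1 FPKM in 3 or more of these 6 libraries. A row was called higher or lower when the groups did not overlap and the difference was at least 1 on the log2 scale. Where 1 group was under 1 FPKM in all 3 libraries, the minimum required all 3 libraries of the other group to reach 1. For such rows the lack of overlap was fixed in advance, and only the size of the difference decided the call. The deposited values gave a median difference of -0.28 over all 13583 rows, which the medians of gene lists below are read against. Counts of list members called are likewise read against the shares over all rows, 7.1% higher and 10.5% lower.

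All 6 libraries carried the macrophage markers. Csf1r, the M-CSF receptor, stood between 239 and 343 FPKM and Adgre1, which encodes F4/80, between 299 and 864. The 11 lymphoid markers summed to at most 1.17 FPKM in any of the 6 libraries and the 7 erythroid markers found to at most 1.13. M0 replicate 3 stood apart. Its 18 stromal markers summed to 433 FPKM, against 20.1 and 17.3 in the other M0 libraries and 13.9 to 63.9 in M1+PBM, with Col1a1 (a collagen chain) at 123, Sparc (a matrix protein) at 55.7 and Col1a2 (the partner collagen chain) at 45.9. Marker sums of other cells differed between the groups in 2 lists, without overlap for neutrophil markers and with overlap for dendritic cell markers. The 13 neutrophil markers summed to 14.8 to 28.5 FPKM in M0 and 105 to 110 in M1+PBM. Of these, 2 of 3 measured members were called higher and S100a9, a defining marker, was listed at 0 in all 6 libraries. The 9 dendritic cell markers summed to 20.4 to 90.1 in M0 and 8.40 to 25.9 in M1+PBM. Itgax, the only dendritic cell marker in the comparison, had 89.4, 70.3 and 19.8 FPKM in M0 replicates 1 to 3. It was not called, and was called lower without M0 replicate 3. The part of such cells in the results was not tested. The 6 endothelial markers summed to 10.5 to 18.9 in the 6 libraries and the 13 liver markers to 41.7 to 259. M0 replicate 3 held more inflammatory RNA than the other M0 libraries, for example 233 FPKM of Tnf against 16.9 and 14.9. Of 13583 rows, 329 were at least 1 log2 unit above both other M0 libraries in M0 replicate 3, against 28 for M0 replicate 1 and 43 for M0 replicate 2. At least 1 log2 unit below both others were 109 rows in M0 replicate 3, 25 in M0 replicate 1 and 248 in M0 replicate 2. The part of M0 replicate 3 in the results was not tested, and the counts of calls are also given without it. In RNA from a whole culture, fewer cells of a kind and less RNA per cell cannot be told apart. Expression of Xist and of Y-linked genes differed among libraries of 1 group, while the study states that its mice were all male. M1+PBM replicate 3 had 64.8 FPKM of Xist and none of Ddx3y, M0 replicates 2 and 3 had at most 0.0077 of Xist with 8.49 and 6.59 of Ddx3y, and M0 replicate 1 and M1+PBM replicate 1 had both (23.6 and 12.99 of Xist, 4.50 and 3.79 of Ddx3y).

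Irradiated M1 macrophages lay far from M0. In M1+PBM, 965 of 13583 rows were called higher than in M0 (7.1%) and 1430 lower (10.5%). Without M0 replicate 3 these counts were 1075 (7.91%) and 1564 (11.5%), and 945 and 1308 of the calls were shared with the first. Leaving out any library makes a lack of overlap easier to meet, and without M0 replicate 2 the counts were 935 and 1563. The split between directions depended on scaling, since median-of-ratios scaling moved the median of all rows to -0.01 and gave 1300 higher (9.57%) and 896 lower (6.6%), or 59.2% of calls higher against 40.3% for the values as deposited. The M1 libraries gave 1024 rows higher than the same M0 libraries (7.54%) and 1904 lower (14.0%), or 1155 (8.5%) and 2026 (14.9%) without M0 replicate 3. Groups that did not overlap, whatever the size of the difference, were found between M1+PBM and M0 in 2095 rows higher (15.4%) and 6407 lower (47.2%). This split too depended on scaling, with 3752 higher and 3647 lower under median-of-ratios scaling and 3239 and 4010 under quantile normalization. The mean absolute log2 difference over rows was 0.647 to 0.760 between single M0 and M1+PBM libraries, with a median of 0.682 over 9 pairs, or 0.681 to 0.760 with a median of 0.714 over the 6 pairs without M0 replicate 3. It was 0.243 to 0.394 within M0 and 0.217 to 0.298 within M1+PBM. For M1 and M0 libraries it was 0.681 to 0.914 with a median of 0.764, and for M1 and M1+PBM libraries 0.141 to 0.338 with a median of 0.267. Thus the pairs of M1+PBM and M0 all lay farther apart than any pair within a group.

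The genes with the widest gap above M0 included a chemokine, acute-phase proteins and members of interferon-inducible families. Ccl5 (row ENSMUSG00000035042), a chemokine for T cells, had 0.373, 1.75 and 9.49 FPKM in M0 replicates 1 to 3 and 1545, 1875 and 1888 in M1+PBM. Its difference was 9.01, with 7.20 log2 units between the highest M0 and the lowest M1+PBM library. Saa3, an acute-phase protein, had 0.553, 0.445 and 31.4 FPKM in M0 and 3098, 2657 and 2478 in M1+PBM, a difference of 9.35 that became 10.83 without M0 replicate 3. Complement factor B (Cfb), which starts the alternative complement pathway, differed by 7.37, and lipocalin 2 (Lcn2), which binds bacterial siderophores, by 6.34. Also in the first 10 were Ms4a4c, AW112010, Ifit1bl1, Gm6545, Slfn1 and Slfn4, with differences of 6.06 to 7.43. Slfn1 and Slfn4 belong to the Schlafen family and Ifit1bl1 to the Ifit family, whose members are similar enough that the counting could share reads among them. Ifit1bl1, Gm6545, Slfn1 and Slfn4 were under 1 FPKM in every M0 library, so the minimum fixed their lack of overlap, though not the width of the gap. In all 10 the groups were separated by at least 5.39 log2 units. The M1 libraries, which share the M0 controls, gave differences of 6.26 to 9.42 for the same 10 genes.

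The type I interferon-stimulated genes stood near their M1 level, most of them below it. Of 42 type I interferon-stimulated genes, 41 were called higher than in M0 and none lower, with a median difference of 3.47, which is 3.75 above the median of all rows. The M1 libraries, which share the M0 controls in this and all later values of M1 against M0, gave 41 higher and a median of 3.51. The member not called was Irf9, a subunit of the interferon-activated transcription factor, at 0.95, and it was called without M0 replicate 3. Rsad2, which encodes the antiviral enzyme viperin, had 1.58, 0.988 and 17.9 FPKM in M0, 771, 649 and 1091 in M1 and 718, 593 and 665 in M1+PBM. M0 replicate 3 was above the other M0 libraries, and every M1+PBM library was above every M0 library, at a difference of 7.16. Ifit1, an RNA-binding antiviral protein, differed by 6.62 and Mx1, an antiviral GTPase, by 6.52. The median member stood at 96.4% of its M1 level in M1+PBM, against 104.9% over the 12238 rows of the fit of M1+PBM against M1 described below. In that fit 34 of the 42 had a lower mean log2 level in M1+PBM, against 4212 of all 12238 rows. None of the 42 passed an unadjusted p of 0.05, which does not show that the levels were equal. When the replicate number was added as a block 2 were lower, beside 3.24% of all rows. Reads of near-identical members, such as those of the Ifit and Oas families, may be shared between rows.

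**Figure D1:**
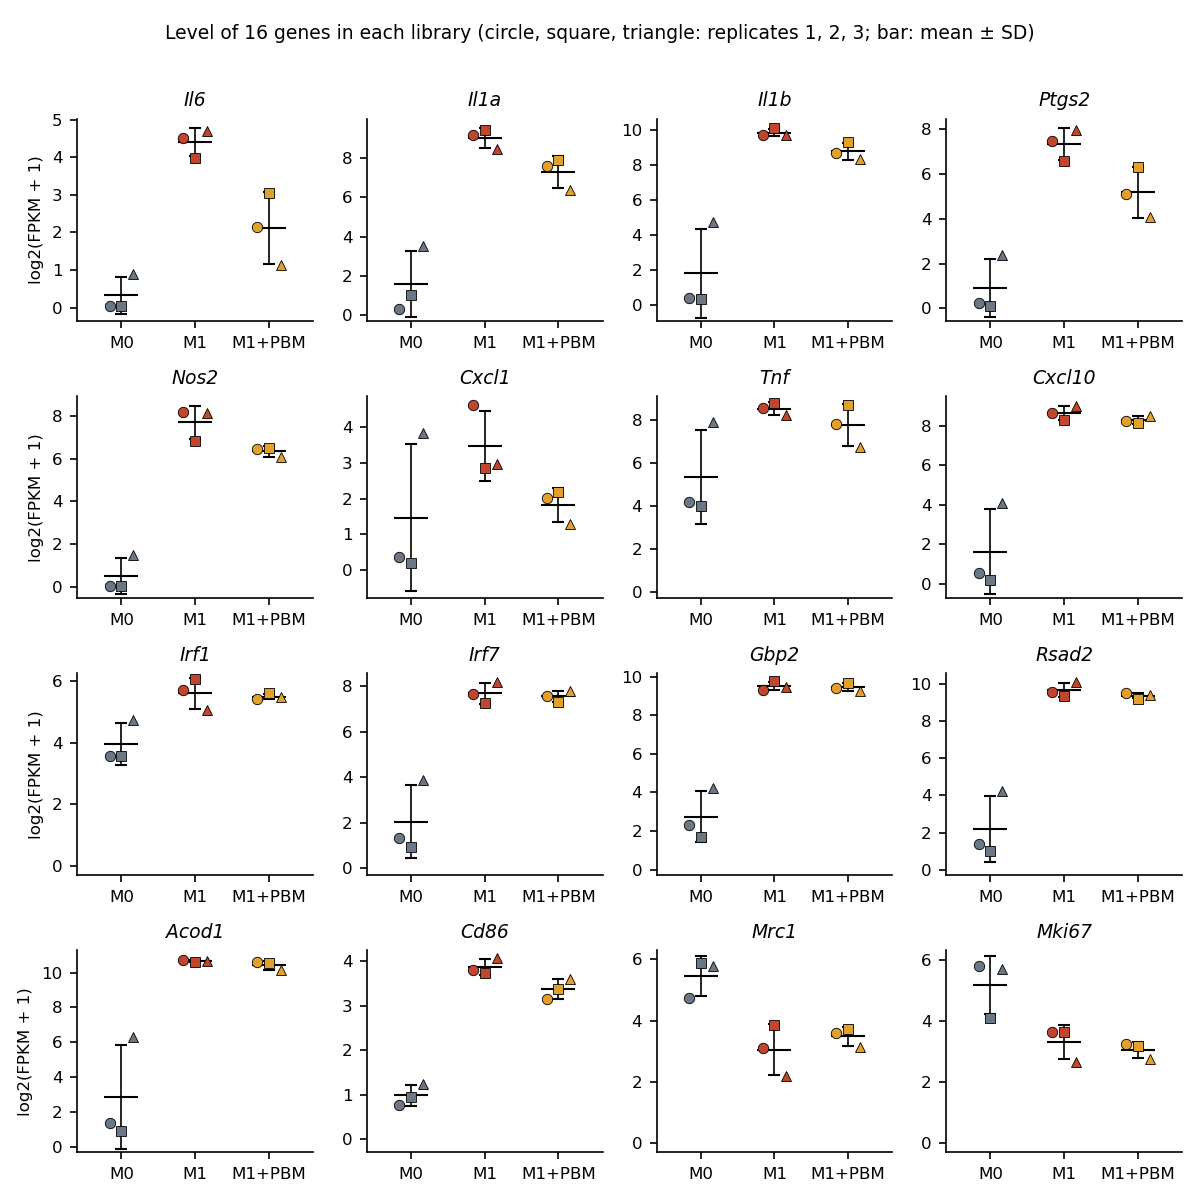
Level of 16 genes in every library on the log2(FPKM + 1) scale, 1 panel per gene, with replicates 1, 2 and 3 as circle, square and triangle and the mean ± SD as black bars. In the panels of Rsad2, Gbp2, Irf7 and Acod1 the M1+PBM points lie near the height of the M1 points, in those of Il6, Il1a, Ptgs2 and Nos2 they lie between M1 and M0, and M0 replicate 3 is the highest M0 point in each of these.

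Of 17 interferon-γ-induced GTPases, which attack vacuoles that hold pathogens, 16 were called higher and none lower, with a median difference of 3.81 against 4.44 for M1, and 16 were higher without M0 replicate 3. Gbp4 and Gbp10 were under 1 FPKM in every M0 library, so the minimum fixed their lack of overlap. In the fit against M1, 16 of the 17 had a lower mean log2 level in M1+PBM, against 4212 of all 12238 rows, at a median of 84.3% of M1. At an unadjusted p of at most 0.05, 1 was lower, beside 1.45% of all rows. With the replicate block 3 were lower, beside 3.24%. The member lower without the block was Gbp4, at 61.6% of M1 with a limma adjusted p of 0.90. Gbp2 had 3.96, 2.26 and 17.5 FPKM in M0 and 677, 825 and 611 in M1+PBM, beside 633, 863 and 700 in M1. Its difference from M0 was 6.71, and all M1+PBM libraries were above all M0 libraries. Gbp5, a promoter of inflammasome assembly, differed by 6.24. Members of the Gbp and Tgtp families are near-identical in places, so that their separate values are uncertain. Gbp8 was not called, with a difference of 0.66 as 0.496 to 1.22 FPKM in M0 became 1.48 to 2.08 in M1+PBM. Of 20 genes of MHC class I presentation, 18 were called higher, at a median of 2.35 against 2.45 for M1, with Tap1, the peptide transporter, at 3.38. H2-Q6 and H2-Q7, class I genes that resemble each other closely, differed by 4.53 and 4.12. Not called were H2-D1 and Erap1, at 0.77 and 0.65, with no overlap between the groups in either. In contrast, 1 of 9 MHC class II genes was called, H2-Ab1 at 1.55, beside 7.1% of all rows called higher, and the median of that list was 0.56. These counts, 18 of 20 and 1 of 9, were again found without M0 replicate 3.

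The promoters of these genes are shown because they hold the sequence that interferon-activated factors are known to read, the interferon-stimulated response element. Sequences are from RefSeq on GRCm38.p6, 180 bases ending at the base before the annotated start, 5′ to 3′ on the strand of the gene. Capitals mark matches on either strand to GAAA, any 2 bases and GAAA, with overlapping matches joined.
Ifit1, chr19:34640709-34640888, plus strand: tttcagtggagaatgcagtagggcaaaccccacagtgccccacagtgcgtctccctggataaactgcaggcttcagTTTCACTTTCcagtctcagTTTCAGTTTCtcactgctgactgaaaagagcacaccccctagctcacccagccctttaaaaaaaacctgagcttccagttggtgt
Isg15, chr4:156200819-156200998, minus strand: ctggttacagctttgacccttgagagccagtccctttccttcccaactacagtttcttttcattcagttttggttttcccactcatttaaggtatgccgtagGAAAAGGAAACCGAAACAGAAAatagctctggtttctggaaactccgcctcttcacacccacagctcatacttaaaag
Gbp2, chr3:142620483-142620662, plus strand: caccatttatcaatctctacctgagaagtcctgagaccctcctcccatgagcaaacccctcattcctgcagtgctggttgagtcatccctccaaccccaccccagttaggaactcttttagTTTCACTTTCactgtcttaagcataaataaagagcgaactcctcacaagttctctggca
In Isg15, a ubiquitin-like modifier, 3 matches ran into each other. Among windows of 300 bases (250 before and 50 after the start), the motif was found in 17 of 40 windows of the type I list (42.5%, 32 of 42 genes matched) and in 10 of 12 of the GTPase list (83.3%, 11 of 18 genes). It was found in 3.44% of all 32851 windows, in 14.4% of 756 windows of genes called higher in M1+PBM than in M0 and in 2.68% of 1196 windows of genes called lower. These shares are descriptions and no test was run.

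Of 15 genes in the list of STAT and IRF factors, 7 were called higher than in M0 and none lower, with a median of 0.95 against 0.92 for M1. Without M0 replicate 3, 8 were higher, as Irf9 was then called. Irf7, an amplifier of type I interferon, had 1.53, 0.926 and 13.8 FPKM in M0 and 190.2, 157 and 219 in M1+PBM, a difference of 5.50. Batf, an AP-1 family factor that is neither a STAT nor an IRF, differed by 3.91, with all M1+PBM libraries above all M0 libraries. Irf1, a factor induced by IFN-γ, had 10.8, 10.9 and 25.6 FPKM in M0 and 41.8, 47.6 and 43.4 in M1+PBM, so that the difference of 1.54 came with no overlap. Irf8 and Irf5, with differences of -0.67 and 0.02, overlapped between the groups.

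**Figure D2:**
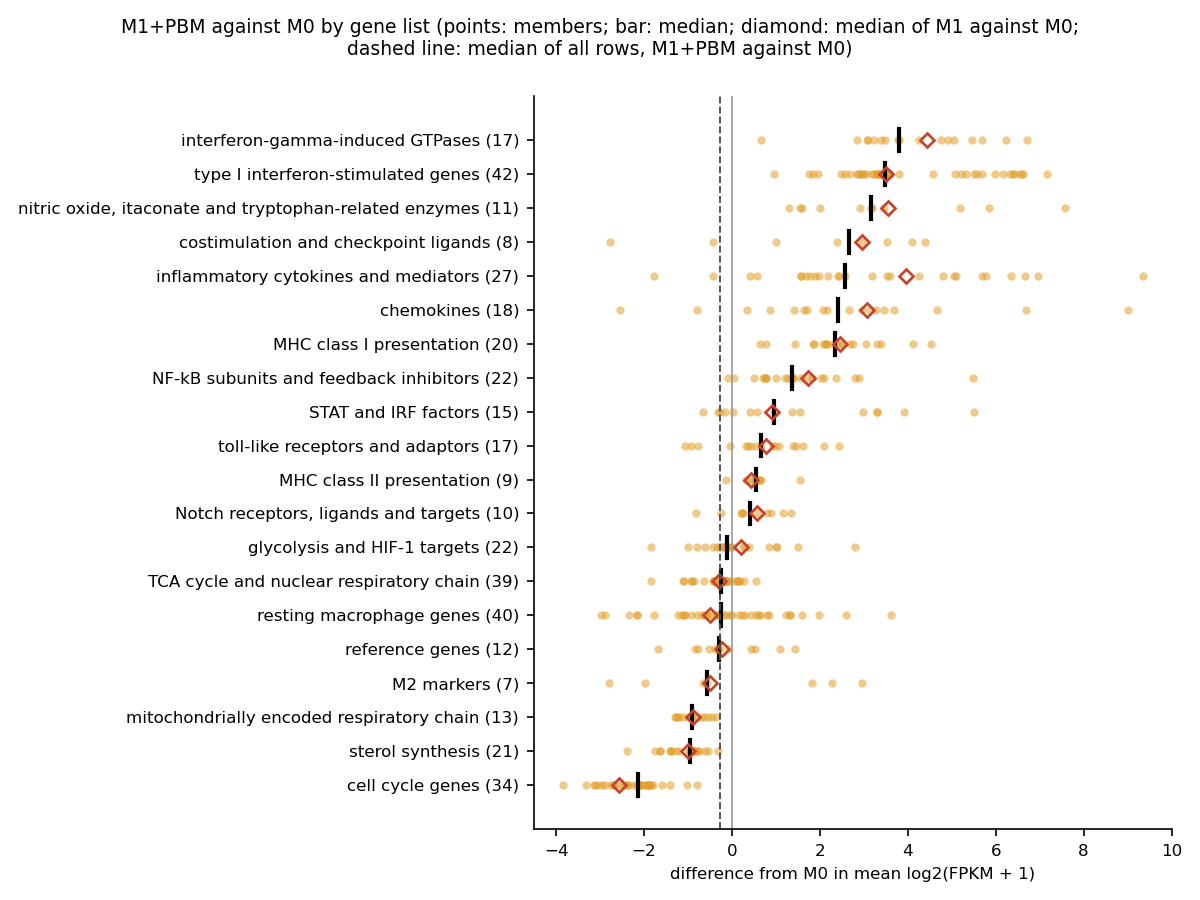
Difference of M1+PBM from M0 in mean log2(FPKM + 1) for the members of 20 gene lists (points, with the number of members in parentheses), with the median of each list as a bar, the median of M1 against M0 as a diamond and the median of all rows as a dashed line at -0.28. Interferon, antigen presentation and inflammatory lists lie to the right, the bar of the inflammatory list lies left of its diamond at 2.56 against 3.96, and cell cycle genes lie at -2.15.

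Inflammatory cytokines and mediators remained above M0 and below M1. Of 27 members in the comparison, 21 were called higher than in M0, 1 was called lower and 5 were not called, with a median difference of 2.56 (2.84 above the median of all rows), whereas the M1 libraries gave 23 higher and a median of 3.96. Among those called higher, Il6, Il12b, Csf3, Edn1, Tnfsf10 and Slfn4 were under 1 FPKM in every M0 library, so the minimum fixed their lack of overlap. Without M0 replicate 3, 25 were higher and the median was 3.30, as Tnf, Tnfsf9, Csf1 and Thbs1 were then called. Il1b (row ENSMUSG00000027398), the pyrogenic cytokine cleaved by the inflammasome, had 0.285, 0.244 and 25.1 FPKM in M0, 826, 1077 and 844 in M1 and 409, 629 and 316 in M1+PBM. Every M1+PBM library was above every M0 library and below every M1 library. Its difference from M0 was 6.97, and its mean was 49.3% of M1. Il1a, the membrane-bound relative of Il1b, had 0.237, 1.00 and 10.3 FPKM in M0 and 196, 235 and 81.0 in M1+PBM, beside 583, 680 and 354 in M1. It too lay between the groups without overlap, with a difference from M0 of 5.68.

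Il6 and Ptgs2 were also set apart in all 3 groups. Il6, an acute-phase and B-cell cytokine, had 0.0282, 0.0357 and 0.848 FPKM in M0 and 3.40, 7.30 and 1.20 in M1+PBM, beside 21.7, 14.9 and 25.3 in M1. The lowest M1+PBM library was 0.25 log2 units above the highest M0 library, and the difference of 1.78 compares with 4.08 for M1. Ptgs2, the inducible prostaglandin synthase COX-2, had 0.197, 0.0729 and 4.26 FPKM in M0, 175, 94.9 and 248 in M1 and 33.7, 79.1 and 15.9 in M1+PBM. The difference from M0 was 4.26 against 6.42 for M1, again with each group apart. Inhba, the activin A subunit, had 0.113, 0.102 and 1.77 FPKM in M0 and 4.80, 8.17 and 2.17 in M1+PBM, a difference of 1.88. Csf3, which encodes the neutrophil growth factor G-CSF, had 0.0405, 0.0106 and 0.954 in M0 and 3.09, 3.77 and 1.71 in M1+PBM, a difference of 1.56. Adora2b, an adenosine receptor gene, differed by 2.56, from 0.733 to 3.60 FPKM in M0 to 13.04 to 15.4 in M1+PBM.

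Tnf, the early cytokine of the LPS response, had 16.9, 14.9 and 233 FPKM in M0 and 221, 417 and 106 in M1+PBM, so the groups overlapped through M0 replicate 3, and without it the difference was 3.67 with no overlap. Il12b, the shared chain of IL-12 and IL-23, had at most 0.236 FPKM in M0 and 33.4, 65.5 and 10.5 in M1+PBM, a difference of 4.79. The member called lower was Vegfa, a growth factor for vessels, with 4.11, 3.36 and 5.90 FPKM in M0 and 0.387, 0.301 and 1.14 in M1+PBM, a difference of -1.77. F3, the tissue factor gene, was left out by the minimum, with 0.852, 0.261 and 1.09 FPKM in M0 and 0.0826, 0.0461 and 0.175 in M1+PBM.

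The fit within the M1 table tested how far these genes lay below M1. With limma on log2(FPKM + 1) over 12238 rows, 29 rows were lower in M1+PBM than in M1 (0.237%) and 3 higher (0.0245%) at an unadjusted p of at most 0.05 and a log2 fold change of at least 1 in size. With an adjusted p under 0.05, 1 row was left (0.00817%), the unannotated locus MSTRG.11630, which was listed at 0 in all M1+PBM and M0 libraries and at 11.02 to 16.8 FPKM in M1. Among the 3 higher rows were Szrd1 and Cd300lb, of which Cd300lb, an immune receptor gene, had 107, 105 and 60.1 FPKM in M0, 5.41, 7.45 and 4.48 in M1 and 13.1, 7.75 and 20.3 in M1+PBM. Of 28 inflammatory cytokines and mediators in the fit, all 28 had a lower mean log2 level in M1+PBM, against 4212 of all 12238 rows, and 7 passed both thresholds, namely Il1a, Il1b, Il6, Csf3, Inhba, Ptgs2 and Adora2b. At an unadjusted p of at most 0.05 there were 10 lower and none higher, beside 1.45% lower and 2.99% higher over all rows. When the replicate number was added as a block there were 16 lower, beside 3.24% lower and 4.84% higher over all rows. The median of the list was 62.3% of the M1 level, and 11 members were under 50% of it. The lists were chosen with earlier results of these data known, so counts of list members against M1 are no independent evidence.

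Among these members the log2 fold change against M1 was -2.29 ± 0.47 (SE) for Il6, with an unadjusted p of 0.00231 and a limma adjusted p of 0.90. It was -2.16 ± 0.61 for Ptgs2 and -1.74 ± 0.44 for Il1a, with unadjusted p of 0.0104 and 0.00659. Il1b had -1.07 ± 0.26 and Inhba -2.08 ± 0.51, with unadjusted p of 0.00584 and 0.00559. For all of them the limma adjusted p was 0.90. In limma with the replicate block the unadjusted p was 0.0067 for Il6, 0.027 for Ptgs2 and 8.93e-05 for Il1a. It was 0.00080 for Il1b and 0.00030 for Inhba, and the adjusted p of these genes was 0.36 to 0.58. Adora2b, whose libraries lay close together within each group, had -1.13 ± 0.10 with an unadjusted p of 1.98e-05 and a limma adjusted p of 0.12. None of the lower members thus passed after adjustment over all rows. Tnf, at -0.77 ± 0.47, had a limma adjusted p of 0.90, and a limma adjusted p of 0.58 with the replicate block, where it passed the unadjusted threshold.

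**Figure D3:**
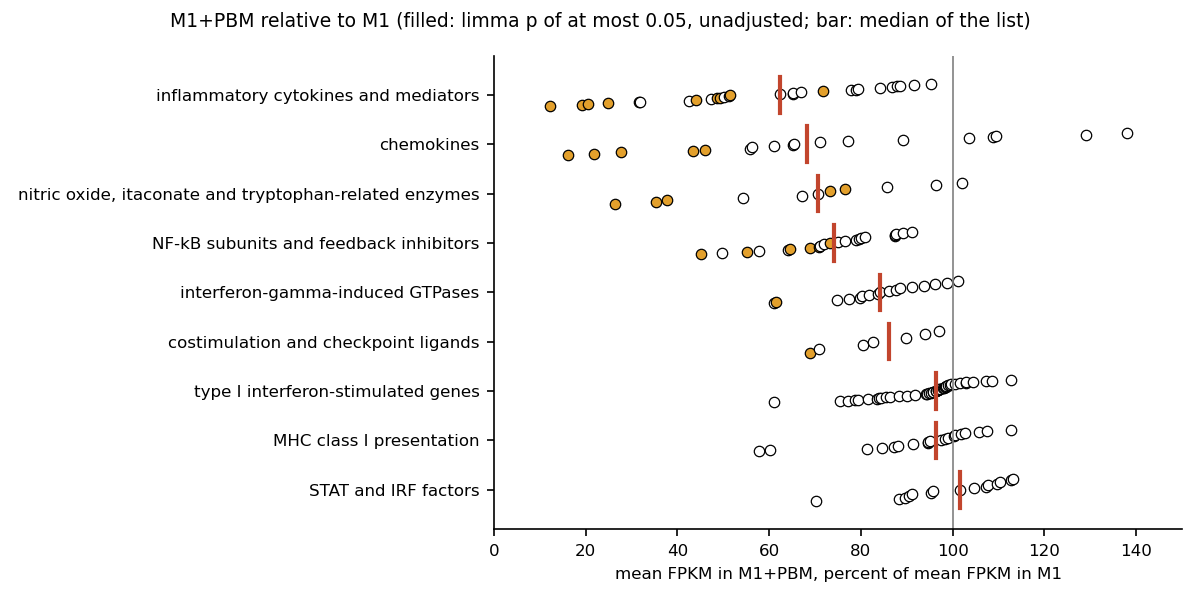
Mean FPKM in M1+PBM as a percent of the mean in M1 for the members of 9 gene lists (points, filled where the unadjusted limma p was at most 0.05), with the median of each list as a red bar and 100% as a line. Inflammatory cytokines, chemokines and nitric oxide enzymes spread down to 12.2%, 16.2% and 26.4%, while type I interferon-stimulated genes hold between 61.1% and 112.6% with no filled point.

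Of 18 chemokines, 11 were called higher than in M0 and 1 lower, at a median of 2.41 against 3.08 for M1. Without M0 replicate 3, 16 were higher, as Ccl2, Ccl7, Cxcl1, Cxcl2 and Cxcl3 were then called. Cxcl11 and Ccl22, called higher, were under 1 FPKM in every M0 library, and Cxcl14, called lower, in every M1+PBM library. The minimum thus fixed their lack of overlap. Ccl5 was at 89.2% of M1 and Cxcl10 at 77.1%. Cxcl10, which attracts T cells through CXCR3 and is induced by interferon, had 0.491, 0.154 and 16.1 FPKM in M0 and 306, 282 and 363 in M1+PBM, beside 397, 313 and 523 in M1, a difference from M0 of 6.68 against 7.03 for M1. Each M1+PBM library was below the M1 library of its number, with a limma p of 0.14 unblocked and 0.0186 with the replicate block (adjusted p = 0.90 and 0.58). Cxcl9, of the same receptor, had 0, 0.0195 and 3.51 FPKM in M0 and 9.12, 8.21 and 33.4 in M1+PBM, at 109% of M1. Cxcl1, which attracts neutrophils through CXCR2 together with Cxcl2 and Cxcl3, had 0.295, 0.152 and 13.3 FPKM in M0, 23.4, 6.23 and 6.90 in M1 and 3.02, 3.53 and 1.43 in M1+PBM. M0 replicate 3 was thus above all 3 M1+PBM libraries, and the difference from M0 was 0.35 with it and 1.53 without it. Cxcl2 had 2.72, 0.936 and 65.0 FPKM in M0 and 23.2, 51.0 and 10.5 in M1+PBM, with an overlap through the same library. Cxcl3 had at most 0.681 FPKM in M0 and 1.44, 1.18 and 1.02 in M1+PBM, a difference of 0.87 that did not reach 1.

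Against M1, 5 of 18 chemokines passed both thresholds, all lower, namely Ccl3, Ccl4, Cxcl1, Cxcl2 and Cxcl3, beside 0.237% of all rows. With the replicate block 8 were lower and 1 higher at an unadjusted p of at most 0.05, beside 3.24% and 4.84% of all rows. The log2 fold change was -1.96 ± 0.60 for Cxcl2, with an unadjusted p of 0.015, and -1.66 ± 0.50 for Cxcl1, with an unadjusted p of 0.014. Ccl3 and Ccl4, which attract monocytes and T cells, were at 43.5% and 46.0% of M1, and their differences from M0 were 2.16 and 2.08 without overlap. The limma adjusted p was 0.90 for all 5. Ccl4 no longer passed with the block (unadjusted p = 0.069). With each library left out in turn, Ccl3, Cxcl3 and Csf3 passed both thresholds in 1 of 6 fits, Ccl4 and Arg2 in 2 and Il1b in 4. Il6, Il1a, Ptgs2, Inhba, Adora2b, Nos2, Ch25h, Cxcl1 and Cxcl2 passed in 6 of 6 fits. The chemokine called lower than in M0 was Cxcl14, with 18.3, 5.79 and 6.65 FPKM in M0 and 0.988, 0.406 and 0.808 in M1+PBM. Members of the Ccl family are alike in sequence in part, so their separate values are uncertain.

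The promoters of the neutrophil-attracting chemokines and of Il6 are shown because they hold the motif read by NF-κB, here GGG, any 3 bases and TTCC on either strand, in capitals.
Cxcl1, chr5:90891065-90891244, plus strand: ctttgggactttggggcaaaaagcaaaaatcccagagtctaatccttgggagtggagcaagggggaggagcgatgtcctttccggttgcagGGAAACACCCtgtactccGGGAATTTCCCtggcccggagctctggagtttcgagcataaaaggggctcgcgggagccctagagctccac
Cxcl2, chr5:90903719-90903898, plus strand: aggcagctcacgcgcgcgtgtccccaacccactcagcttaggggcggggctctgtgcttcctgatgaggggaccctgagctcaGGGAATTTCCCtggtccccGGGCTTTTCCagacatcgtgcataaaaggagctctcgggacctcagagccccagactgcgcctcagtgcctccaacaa
Il6, chr5:30012934-30013113, plus strand: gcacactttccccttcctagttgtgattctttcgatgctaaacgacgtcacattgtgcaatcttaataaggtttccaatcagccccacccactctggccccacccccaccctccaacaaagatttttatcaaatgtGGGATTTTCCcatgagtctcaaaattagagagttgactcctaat
In both Cxcl1 and Cxcl2 a match on each strand overlapped, beside 1 further match. It was found in 5 of 13 windows of the chemokine list (38.5%, 13 of 21 genes matched), in 6 of 29 of the inflammatory list (20.7%, 25 of 34 genes) and in 9 of 24 of the list of NF-κB subunits and feedback inhibitors (37.5%, 20 of 23 genes). All windows held it in 5.56%, windows of genes called higher in M1+PBM than in M0 in 10.3% and windows of genes called lower in 5.85%. The window of Cxcl10 also held it. No match was found in the windows of Ptgs2, Il1b, Adora2b, Ch25h and Ccl3, which also passed both thresholds against M1, or in those of Tnf and Il12b. These shares too are descriptions without a test.

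Of 11 members in the comparison from a list of nitric oxide, itaconate and tryptophan-related enzymes and transporters, 11 were called higher, with or without M0 replicate 3. Their median was 3.17 against 3.55 for M1. The list also holds genes outside these pathways, such as Ch25h and Sod2. Ido2 was under 1 FPKM in every M0 library, so the minimum fixed its lack of overlap. Nos2 (row ENSMUSG00000020826), the inducible nitric oxide synthase, had 0.0147, 0.0133 and 1.79 FPKM in M0, 290, 112 and 284 in M1 and 88.1, 88.8 and 65.9 in M1+PBM. The 3 groups did not overlap, and the difference from M0 was 5.84 against 7.21 for M1. Acod1, which makes itaconate, had 1.54, 0.897 and 77.6 FPKM in M0 and 1535, 1523 and 1121 in M1+PBM, with M1 at 1690, 1548 and 1644. Its difference from M0 was 7.57 and became 9.30 without M0 replicate 3. Slc7a2, an arginine transporter, differed by 5.18 and Sod2, the mitochondrial superoxide dismutase, by 3.45. Against M1, Nos2 (-1.38 ± 0.38, unadjusted p = 0.0097), Ch25h (-1.66 ± 0.49, unadjusted p = 0.014) and Arg2 (-1.12 ± 0.39, unadjusted p = 0.025) passed both thresholds, with a limma adjusted p of 0.90 each. Slc7a2, at -1.01, passed both in limma with the replicate block (unadjusted p = 0.0061, adjusted p = 0.58) and not without it (unadjusted p = 0.064, adjusted p = 0.90). Ch25h makes 25-hydroxycholesterol and Arg2 is the mitochondrial arginase, and they were at 26.4% and 37.7% of M1.

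Of 22 NF-κB subunits and feedback inhibitors, 12 were called higher and none lower, at a median of 1.37 against 1.72 for M1, and 16 were higher without M0 replicate 3, as Nfkbie, Nfkbiz, Zfp36 and Dusp2 were then called. Socs3, the inhibitor of IL-6 signalling, had 0.707, 0.372 and 34.5 FPKM in M0 and 182, 178 and 221 in M1+PBM, a difference of 5.47. Socs1, the inhibitor of IFN-γ signalling, had 0.145, 0.200 and 0.449 FPKM in M0 and 7.15, 8.78 and 7.40 in M1+PBM, with all M1 libraries above these at 12.7 to 16.3. As Socs1 was under 1 FPKM in every M0 library, the minimum fixed its lack of overlap with M0. Its log2 fold change against M1 was -0.78 ± 0.13, with an unadjusted p of 0.00073 and a limma adjusted p of 0.81, short of the fold threshold. Rela, the p65 subunit, had 19.7, 22.2 and 29.7 FPKM in M0 and 26.7, 24.0 and 22.5 in M1+PBM, an overlap with a difference of 0.05. All 22 members had a lower mean log2 level in M1+PBM than in M1, against 4212 of all 12238 rows. Of the 22, 6 were lower at an unadjusted p of at most 0.05, beside 1.45% of all rows, and none of these passed the fold threshold.

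Of 8 costimulatory and checkpoint genes, 5 were called higher than in M0 and 1 lower, and 6 were higher without M0 replicate 3, as Icosl was then called. Cd40, the receptor for T-cell help, had 0.470, 0.478 and 1.83 FPKM in M0 and 33.2, 62.7 and 25.7 in M1+PBM, a difference of 4.40. Cd274, which encodes PD-L1, differed by 4.09 and Cd86, a ligand of CD28, by 2.39. Cd86 had 0.715, 0.917 and 1.35 FPKM in M0, 12.99, 12.4 and 15.9 in M1 and 7.95, 9.34 and 11.1 in M1+PBM, so that M1+PBM lay between the groups at 68.8% of M1 (-0.50 ± 0.15, unadjusted p = 0.0145, limma adjusted p = 0.90). The gene called lower was Havcr2, which encodes the inhibitory receptor TIM-3, at 8.08 to 14.4 FPKM in M0 and 0.153 to 1.29 in M1+PBM. Of 17 toll-like receptors and adaptors, 4 were called higher, beside 7.1% of all rows, with Tlr1 at 2.44 and Tlr3 at 2.10. Without M0 replicate 3, Tlr2 and Cd14 were called higher and Tlr4 and Tlr13 lower.

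The 10 genes with the widest gap below M0 stood at no more than 5.23 FPKM in any M1+PBM library. St6gal1, Cd28, Rasgrp3, Ankrd13b and Ptchd1 were under 1 FPKM in every M1+PBM library. For these the minimum fixed the lack of overlap, though not the width of the gap. St6gal1, a sialyltransferase, had 16.8, 16.6 and 12.0 FPKM in M0 and 0.129, 0.0944 and 0.385 in M1+PBM, a difference of -3.74. Cd28, known as a T-cell costimulatory receptor, had 15.3, 22.9 and 11.8 in M0 and 0.731, 0.344 and 0.486 in M1+PBM. The 11 lymphoid markers together had 0.732 to 1.17 FPKM in the M0 libraries. Rasgrp3, an activator of Ras, differed by -3.38 and Igfbp4, a binding protein of insulin-like growth factors, by -3.29. Pcp4l1, Ankrd13b and Ptchd1 differed by -3.18, -2.57 and -2.86. The other 3 of the 10, Rrm2, Hist1h3g and Hist1h2af, belong to DNA synthesis, and the histone genes are near-identical copies with uncertain separate values.

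Of 34 cell cycle genes, 32 were called lower and none higher, at a median of -2.15 (1.87 below the median of all rows), and 32 were lower also without M0 replicate 3 and under median-of-ratios scaling. The M1 libraries gave 32 lower and a median of -2.57. Rrm2, the regulated subunit of ribonucleotide reductase, had 44.2, 17.0 and 65.4 FPKM in M0 and 2.50, 0.505 and 2.44 in M1+PBM, a difference of -3.85. Top2a, the topoisomerase of dividing cells, had 40.6, 12.6 and 45.4 in M0 and 4.55, 0.770 and 3.10 in M1+PBM. In both genes replicate 2 was the lowest of its group in M0 and in M1+PBM. Mki67, the proliferation marker Ki-67, had 54.2, 16.1 and 50.6 FPKM in M0 and 8.57, 7.98 and 5.76 in M1+PBM, a difference of -2.13. The summed level of the 34 genes was 872, 434 and 952 FPKM in M0, 174, 111 and 189 in M1+PBM and 111 to 123 in M1. Against M1, 18 of the 21 members in the fit had a higher mean log2 level in M1+PBM, where 4212 of all 12238 rows were lower and most of the rest higher, 1 of them at an unadjusted p of at most 0.05 and none past both thresholds. Ccne1 and Tpx2 overlapped between M1+PBM and M0.

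Of 21 sterol synthesis genes, which SREBP factors control, 9 were called lower and none higher at a median of -0.96, and 9 were lower without M0 replicate 3 and 6 under median-of-ratios scaling. Cyp51, which demethylates lanosterol, had 13.8, 22.1 and 21.4 FPKM in M0 and 3.96, 9.13 and 2.93 in M1+PBM, a difference of -1.76 without overlap. The 13 mitochondrially encoded respiratory chain genes had a median of -0.90, and 6 were called lower, none of them after scaling and 8 without M0 replicate 3, as mt-Atp6 and mt-Atp8 were then called. Mt-Cytb had 309, 277 and 196 FPKM in M0 and 117, 126 and 76.6 in M1+PBM, a difference of -1.29 that was -0.93 after scaling. Of 39 nuclear genes of the TCA cycle and respiratory chain, 3 were called lower (Idh1, Idh2 and Mdh1), a smaller share than the 10.5% of all rows, with Idh2 alone called after scaling, and the median of -0.24 turned to 0.10 under scaling. The same number was lower without M0 replicate 3. Glycolysis and HIF-1 targets had 3 of 22 called higher (Pfkfb3, Hk2 and Hk3) and 1 lower (Pdk1), beside 7.1% and 10.5% of all rows. Their median of -0.11 turned to 0.23 under scaling. Without M0 replicate 3, 5 were higher, as Hif1a and P4ha1 were then called, and the median was 0.10. Pfkfb3, which makes the activator of phosphofructokinase, had 3.80, 6.25 and 2.76 FPKM in M0 and 35.0, 31.4 and 36.6 in M1+PBM.

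**Figure D4:**
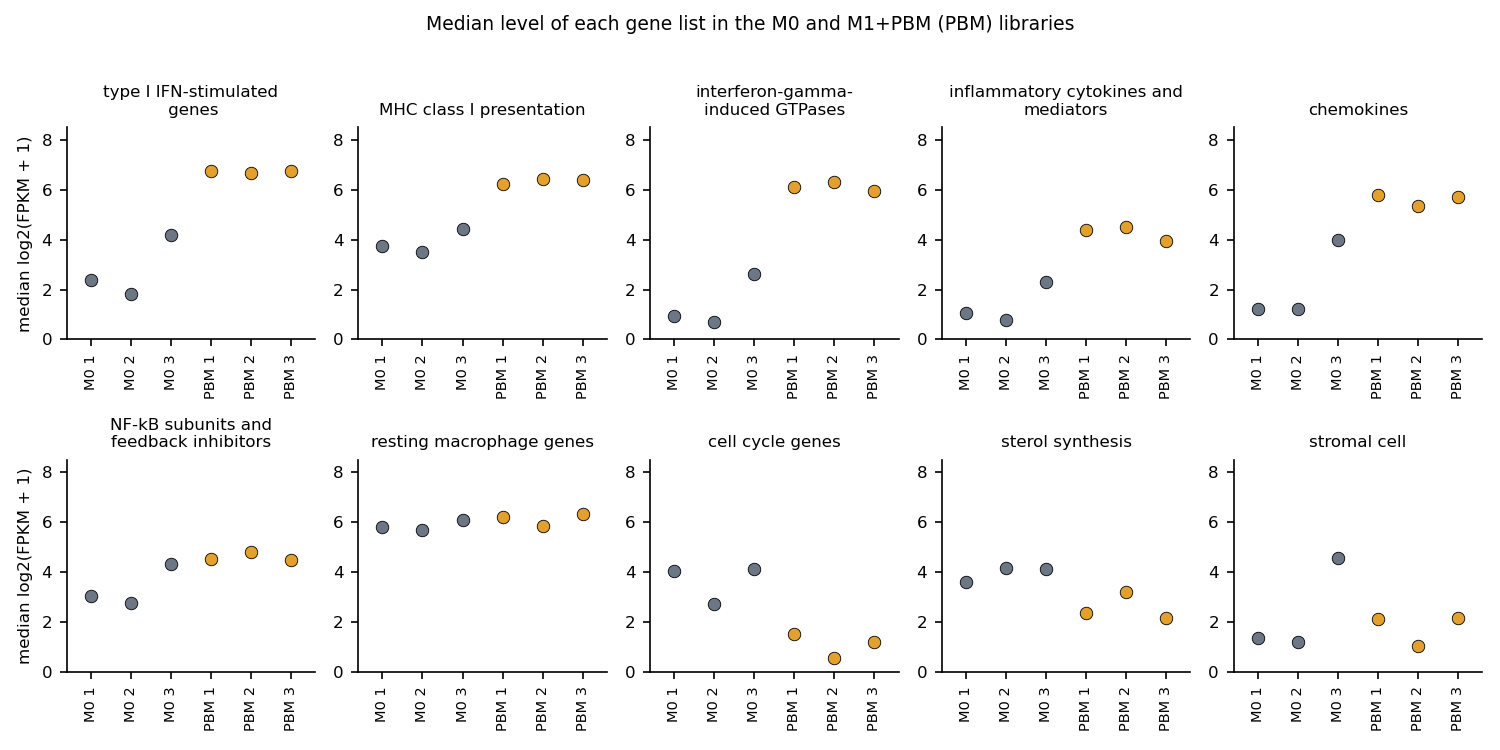
Median log2(FPKM + 1) of 10 gene lists in each of the 3 M0 libraries (grey) and 3 M1+PBM libraries (orange, marked PBM), 1 panel per list. M0 replicate 3 is the highest M0 library in both interferon panels and the MHC class I, inflammatory, chemokine, NF-κB and stromal panels, where its stromal median is 4.56 against 1.35 and 1.17, and M0 replicate 2 is the lowest M0 library in the cell cycle panel.

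Of 40 genes of the resting macrophage, 8 were called lower and 6 higher, beside 10.5% and 7.1% of all rows, with 26 not called. Their median of -0.25 turned to 0.10 under scaling. There were 9 lower and 7 higher without M0 replicate 3. Pparg, a lipid-sensing nuclear receptor, had 16.9, 21.2 and 9.12 FPKM in M0 and 0.863, 0.907 and 1.28 in M1+PBM, a difference of -2.99. Gas6, a ligand of the receptors that clear dying cells, differed by -2.88. Fcgr1, the high-affinity IgG receptor and an IFN-γ target, went the other way, with 23.6, 25.1 and 59.3 FPKM in M0 and 438, 321 and 509 in M1+PBM, and Siglec1, a sialic acid receptor, differed by 2.58. Adgre1 was higher at 1.23, while Csf1r at -0.30 and Mertk, a clearance receptor, at 0.23 were not called.

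Of 16 markers of alternative (M2) activation 7 passed the minimum, with 3 called higher (Ccl22, Il4ra and Msr1) and 2 lower (Mrc1 and Egr2), with or without M0 replicate 3. Over all rows 7.1% were called higher and 10.5% lower. The minimum fixed the lack of overlap of Ccl22, which was under 1 FPKM in every M0 library. Mrc1, which encodes the mannose receptor CD206, had 25.3, 57.1 and 54.1 FPKM in M0, 7.64, 13.4 and 3.60 in M1 and 10.97, 12.1 and 7.82 in M1+PBM, a difference from M0 of -1.97. Arg1, the arginase of M2 cells, was under the minimum, with 0.248 to 0.311 FPKM in M0 and 1.37, 0.405 and 2.999 in M1+PBM. Tgfb1 was not called, at -0.57.

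Notch1, a receptor that is cleaved to a transcription cofactor, had 9.85, 8.14 and 8.59 FPKM in M0, 39.7, 35.5 and 37.4 in M1 and 25.3, 22.9 and 23.9 in M1+PBM. The 3 groups did not overlap, the difference from M0 was 1.35 and the mean was 64.1% of M1 (-0.62 ± 0.09, unadjusted p = 0.00044, limma adjusted p = 0.81). Of 10 Notch receptors, ligands and targets in the comparison, 2 were called higher than in M0, Notch1 and its ligand gene Jag1, beside 7.1% of all rows. There were 3 without M0 replicate 3, as Rbpj was then called. Hif1a, the oxygen-sensitive subunit of HIF-1, had 11.3, 10.4 and 16.7 FPKM in M0, 49.7, 45.5 and 44.2 in M1 and 20.5, 24.7 and 24.8 in M1+PBM. It lay 0.84 above M0 without overlap, or 1.03 without M0 replicate 3, and at 50.2% of M1 (-0.97 ± 0.11, unadjusted p = 9.31e-05, limma adjusted p = 0.38). The genes that the study drew in its heatmap were chosen on the M1 and M1+PBM libraries, so their counts against M1 are no independent evidence. Against M0, 7 of the 13 in the comparison were called higher and 1 lower, and without M0 replicate 3 these were 10 and 1, as Cxcl1, Cxcl3 and Hif1a were then called.

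Of 12 genes often used as references, 2 were called higher (Actb at 1.10 and B2m at 1.43) and 1 lower (Hprt at -1.69), beside 7.1% and 10.5% of all rows. Their median of -0.30 turned to 0.05 under scaling. The counts were again 2 and 1 without M0 replicate 3. Hprt, a purine salvage enzyme, had 59.8, 61.8 and 67.4 FPKM in M0 and 17.8, 19.8 and 18.7 in M1+PBM, beside 15.99 to 17.4 in M1. B2m, the light chain of MHC class I, had 454, 399 and 674 FPKM in M0 and 1220, 1329 and 1473 in M1+PBM.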

How the data were processed

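Bulk RNA-seq libraries of 3 M0, 3 M1 and 3 M1+PBM cultures were grouped by their titles. The deposited values are FPKM per gene in 2 tables, 1 with the M0 libraries and 1 with the M1 and M1+PBM libraries. The authors made FPKM with Cufflinks, as the study's methods say. The submitters' processing notes also name Bowtie 0.12.2 and mm9, with no role given. The rows are Ensembl identifiers and 320 loci assembled by the authors (MSTRG), and since their build was not settled no coordinates are taken from the tables. Symbols for 55154 of 55655 rows come from GENCODE M21. Promoter windows and their coordinates are those of RefSeq on GRCm38.p6, matched by symbol, and Nos2 and Ccl5 had no entry.

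Values were taken as log2(FPKM + 1). Rows that reached 1 FPKM in 3 or more of 6 libraries were kept, 13583 for M1+PBM against M0 and 12238 for M1+PBM against M1. The first comparison crosses the tables and has no test. The second was fitted with limma 3.58.1 (R 4.3.3) with Benjamini-Hochberg adjustment over all rows. Because the labels do not name separate mice, p-values measure only the spread between these samples. Alternatives used a pseudocount of 0.1, dropped the minimum, asked for a mean of at least 5 FPKM, or used median-of-ratios scaling, quantile normalization, the replicate block or each library left out in turn. Same-numbered M1 and M1+PBM libraries deviated together (r of 0.157, 0.469 and 0.462 over rows, against -0.491 to 0.0328 for different numbers). The replicate block therefore took the numbers as pairs. The main fit had no block, and p-values are from it unless the block is named. Whole reads could not be recovered, since 22.7% to 35.4% of low values came out whole within 0.05 (10% would by evenness), so no count test was run. The steps of the values gave an estimate of 30810000 to 42450000 fragments per library, and summed FPKM was 380483 to 425219 per library, of which the 3 rows Rn7s1, Rn7s2 and Gm47299 held 30.9% to 37.8%. The calls were tested on simulated data. Other tools were Python 3.11.15, numpy 2.4.6, pandas 2.3.3 and matplotlib 3.10.9.

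Members and lists were chosen with earlier results of these data known. Named were the 10 annotated genes with the widest gap in each direction, up to 4 members of each list with the largest difference from M0, members against the direction of their list or named by the study, a set of M1, M2 and resting markers, list members past both thresholds against M1, and the 3 markers highest in M0 replicate 3 relative to the other M0 libraries. Members whose call changed without M0 replicate 3, the sex-linked genes, Szrd1, Cd300lb, S100a9 and MSTRG.11630 were named after their values were seen. A few genes that the rule names are not reported here.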

Additional observations from a re-analysis of the deposited data

How the results depend on the processing

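The 965 rows higher in M1+PBM than in M0 stayed within 1.5 times that count under every alternative run, and with each library left out in turn they ranged from 935 to 1075. The 1430 lower rows became 2371 with a pseudocount of 0.1, 693 with a mean of at least 5 FPKM, where 6383 rows were compared, and 896 with median-of-ratios scaling, and ranged from 1362 to 1564 with 1 library left out. For M1+PBM against M1, the 29 lower and 3 higher rows by p and fold became 52 and 23 with a pseudocount of 0.1, and 1 row was higher with median-of-ratios scaling. The 543 rows with an unadjusted p of at most 0.05 became 1318 with no minimum, where 31779 rows were fitted, and 233 with a mean of at least 5 FPKM. With 1 library left out, lower rows by p and fold ranged from 22 to 58, higher rows from 4 to 39, rows with an unadjusted p of at most 0.05 from 252 to 1092, and rows with an adjusted p under 0.05 from 0 to 1. Of these, leaving out M1 replicate 2 gave 58 lower and 9 higher rows and leaving out M1+PBM replicate 2 gave 50 and 39. Without any 1 of the M1 replicates, MSTRG.11630 fell under the minimum of 1 FPKM in 3 libraries and was not fitted, so its adjusted call was lost. The cause of the other changes was not tested. Under median-of-ratios scaling the excess of lower over higher calls against M0 turned to an excess of higher calls, and the medians of the TCA, glycolysis, resting macrophage and reference lists changed sign, as given beside each.

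With the replicate block, for which the numbers paired M1 and M1+PBM libraries, 40 rows were lower and 5 higher by p and fold and 988 passed the unadjusted 0.05 threshold. Among list members the block took Il10 and Slc7a2 past both thresholds and Ccl4 out of them. M1+PBM and M0 had no test to block. FPKM carry no counts, so the precision of a single low value is unknown.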
